A study of Mus musculus with 1600 samples.

Results

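The immediate-early and heat shock genes are a module of 38 genes, chosen by name from a list. The rule uses no measured value, although the list was drawn up with earlier results of these data known. They are 28 immediate-early and stress genes and 10 heat shock protein genes, out of 45792 gene identifiers in the count tables. The 28 comprise 7 members of the AP-1 family, 9 other transcription factors, 3 immediate early response genes and 9 feedback and stress response genes. All 38 symbols were found in the tables.

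The module was measured in single-cell RNA-seq libraries of mouse glomeruli, the filtering units of the kidney. All animals were 10-week-old Nos3-/- mice on a C57BL/6 background, which lack endothelial nitric oxide synthase in every group, controls included. The Diabetes group was made diabetic with streptozotocin, which kills the beta cells of the pancreas, from 8 weeks of age at 50 µg per g body weight per day, intraperitoneally, over 5 consecutive days. The Control group were littermates of matched age and sex that received citrate vehicle. In each of 2 experiments the glomeruli of 3 mice made up 1 pool of each condition, which gives 4 pools in all. Kidneys of every pool were perfused with magnetic beads and digested with collagenase, Pronase E and DNase I, and the cells were caught in the wells of a Fluidigm C1 high-throughput chip, where each well was imaged and became 1 library.

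Immediate-early genes are switched on within minutes of a stimulus by transcription factors that are already in the cell, among them serum response factor and CREB, which MAP kinases activate. Fos and Jun proteins pair to form AP-1, and genes such as Dusp1 and Zfp36 end the response by removing phosphate from MAP kinases or by destabilising messenger RNA. Heat shock genes encode chaperones that hold or refold damaged proteins, and heat shock factor switches them on through heat shock elements in their promoters. Both groups are known to respond to the dissociation of tissue with enzymes as well as to signals in the animal. Every pool was digested, so the part of the digestion in the levels below was not tested.

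The promoters of 31 of the 38 members were matched by symbol in RefSeq on GRCm38.p6, and the 250 bases before each listed start were searched on both strands. Some genes had several starts, and a match before any of them counted. The heat shock element, searched as GAANNTTC or TTCNNGAA, was present in 7 of the 8 heat shock genes with an entry, namely Hspa1a, Hspa1b, Hsph1, Dnaja1, Hspe1, Hspd1 and Hspb1. It was present in 2 of the 23 immediate-early and stress genes with an entry, Jun and Egr2, and in 14.5% of 27025 genes. Egr2 and Dnaja1 had it before only some of their starts. The windows of Hspe1 and Hspd1 overlap and hold the same elements. The 3 heat shock promoters printed next are those of Hspa1a and Hspa1b, which had the largest ratios between immune-like and endothelial-like wells among the heat shock genes, and of Hspb1, which had the reverse order. Hspa1a and Hspa1b lie on chr17:34972157-34972406 and chr17:34959239-34959488, both on the minus strand, and Hspb1 lies on chr5:135887669-135887918, on the plus strand. Capitals mark the heat shock element, which begins 104 bases before the start of both Hspa1 genes and 117 and 97 bases before that of Hspb1.
Hspa1a: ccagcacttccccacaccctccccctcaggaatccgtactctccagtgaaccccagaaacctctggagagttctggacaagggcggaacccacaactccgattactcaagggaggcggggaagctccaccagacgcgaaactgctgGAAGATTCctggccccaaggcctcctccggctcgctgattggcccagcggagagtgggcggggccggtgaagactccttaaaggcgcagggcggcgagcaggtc
Hspa1b: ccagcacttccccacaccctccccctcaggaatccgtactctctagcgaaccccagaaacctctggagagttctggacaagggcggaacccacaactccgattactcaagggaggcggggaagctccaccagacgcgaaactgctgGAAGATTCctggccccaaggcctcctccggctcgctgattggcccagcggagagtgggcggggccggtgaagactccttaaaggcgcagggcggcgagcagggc
Hspb1: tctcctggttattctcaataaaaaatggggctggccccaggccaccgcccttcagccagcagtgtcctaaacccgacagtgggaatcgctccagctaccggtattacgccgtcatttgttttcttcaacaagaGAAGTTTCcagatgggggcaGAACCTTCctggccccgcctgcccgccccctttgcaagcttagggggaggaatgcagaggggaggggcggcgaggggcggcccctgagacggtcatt
The Hspa1a and Hspa1b promoters were identical at 247 of 250 bases, and their coding sequences were 99.4% identical, with 8 mismatched and 3 gapped positions. Reads of these 2 neighbouring genes are therefore hard to assign to one or the other, and each gene's separate level is uncertain.

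The cAMP response element TGACGTCA was present in 4 of the 31 members with an entry, Maff, Dusp1, Btg2 and Ppp1r15a, and in 1.77% of all genes. The AP-1 site TGANTCA was present in 0 of the 31 and in 7.82% of all genes. The CArG box, which binds serum response factor, was present in Egr2 and Zfp36 and in 1.62% of all genes. The Egr site GCGTGGGCG was present in Maff and Dnaja1 and in 0.622% of all genes, and TATAAA was present in Fos, Nr4a2, Btg1 and Gadd45b and in 14.3% of all genes. The promoters of Fos, on chr12:85473640-85473889 of the plus strand, and of Btg2, on chr1:134079156-134079405 of the minus strand, are printed as examples of the immediate-early genes. Capitals mark TATAAA at 33 bases before the start of Fos and the cAMP response element at 166 bases before that of Btg2.
Fos: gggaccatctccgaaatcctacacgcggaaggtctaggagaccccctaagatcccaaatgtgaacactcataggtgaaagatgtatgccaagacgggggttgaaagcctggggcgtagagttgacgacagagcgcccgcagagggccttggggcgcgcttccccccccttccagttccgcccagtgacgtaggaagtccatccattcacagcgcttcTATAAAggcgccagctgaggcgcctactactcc
Btg2: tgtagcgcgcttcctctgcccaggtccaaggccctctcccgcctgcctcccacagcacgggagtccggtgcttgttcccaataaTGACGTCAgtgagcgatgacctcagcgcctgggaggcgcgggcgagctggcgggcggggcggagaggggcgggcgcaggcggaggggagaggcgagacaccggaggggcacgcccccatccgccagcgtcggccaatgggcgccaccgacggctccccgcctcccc
These matches describe the letters of the windows, and binding was not measured.

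Of 1600 wells, 639 were kept: they were imaged with 1 cell, held reads of at least 500 genes and had at most 30% mitochondrial reads. Values of the 4 pools are given throughout in the order control of experiment 1, control of experiment 2, diabetes of experiment 1 and diabetes of experiment 2. The kept wells numbered 120, 203, 128 and 188, with median read counts of 32222, 219072, 43577 and 176715 a well, so that depth and experiment cannot be told apart. No well's counts were equal to those of another well. Wells were clustered with the 38 members left out and clusters were named from marker genes, which gave 85 immune-like wells, 278 endothelial-like, 141 mesangial-like and 74 podocyte-like wells, a class of 17 wells with smooth muscle or renin markers and 44 unnamed wells. Immune-like wells numbered 5, 6, 32 and 42 in the 4 pools, endothelial-like wells 47, 75, 68 and 88, mesangial-like wells 30, 75, 6 and 30, and podocyte-like wells 24, 32, 1 and 17. The 13 immune markers summed to between 10427 and 54268 CPM (reads of a gene scaled to a total of 1000000) in immune-like wells and to between 55.1 and 416 CPM in endothelial-like wells, and the 14 endothelial markers to between 18676 and 25073 CPM in endothelial-like wells and between 705 and 7815 CPM in immune-like wells. No marker of either list was at 0 in all 4 pools of these classes. Globin genes of red cells reached 14585 CPM in endothelial-like wells of the diabetes pool of experiment 1 and 20476 CPM in immune-like wells of the diabetes pool of experiment 2. Wells imaged with 0 cells (195, 111, 184 and 98) had median read counts of 2212, 33610, 2397 and 32994 and served as the background of RNA outside cells.

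The module was carried at its highest level by the immune-like wells. A class's level of a gene is its share of the reads summed over the wells of that class in a pool, in CPM. The 38 members summed to 19027, 17046, 9153 and 9493 CPM in immune-like wells, against 3298, 3357, 3250 and 3750 CPM in endothelial-like wells and 2632, 2740, 3358 and 2889 CPM in mesangial-like wells. The pools of the immune-like class did not overlap with those of the other 2. Podocyte-like wells summed to 1931, 3948 and 3501 CPM in the 3 pools with 5 or more wells, and the single podocyte-like well of the remaining pool to 10840 CPM. The 17 smooth muscle or renin cell-like wells summed to 9725, 7962, 13223 and 3173 CPM, a range that overlapped with the immune-like one, from 3 to 6 wells a pool. The wells that no marker list named summed to 8160, 3749, 5471 and 3077 CPM. These levels are descriptions of the classes, with no test. With mitochondrial reads limited to 15% and the wells clustered anew, immune-like wells numbered 33 in place of 85. Endothelial-like wells numbered 257 in place of 278. In the diabetes pool of experiment 2, immune-like wells numbered 8 in place of 42. The class levels are given only at the limit of 30%, and the part of mitochondrial reads in them was not tested.

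Of the 4 main classes, the immune-like wells had the highest mean level for 31 of the 38 members, 24 of the 28 immediate-early and stress genes and 7 of the 10 heat shock genes. The exceptions were Maff, Egr3 and Hspb1, highest in endothelial-like wells, Dnaja1 and Hspd1, highest in mesangial-like wells, and Nr4a2 and Cebpd, highest in podocyte-like wells. Egr3 had reads in 1 kept well in all. Over the 32 members that averaged at least 10 CPM over immune-like and endothelial-like wells, 20 (62.5%) were higher in immune-like wells in all 4 pools. The share was 6.56% of the 9117 genes that passed the same limit. For 12 members (37.5%) the lowest immune-like pool lay above the highest endothelial-like pool, against 3.74% of those genes. The opposite order without overlap held for 1 member, Hspb1, against 14.2% of those genes. The median log2 ratio of immune-like to endothelial-like mean level was 2.03 over the members and -0.37 over the genes. Here and below, these genes share only that limit with the members and were not matched to them in level. The control pools held 5 and 6 immune-like wells, where a gene of low level can go without reads. The part of this in the shares of all genes was not tested. Fosb, Atf3, Cebpb and Myc averaged 1.82, 1.78, 3.33 and 1.31 CPM in endothelial-like wells. They reached the floor of 10 CPM, here and below, only through the immune-like wells where they were high, as other genes could. Fosb, Atf3 and Cebpb were among the 20 members above, and Atf3 and Cebpb among the 12. In the 2 diabetes pools, which hold most of the immune-like wells, 23 members were higher in immune-like wells in both, against 21.8% of those genes.

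**Figure D1:**
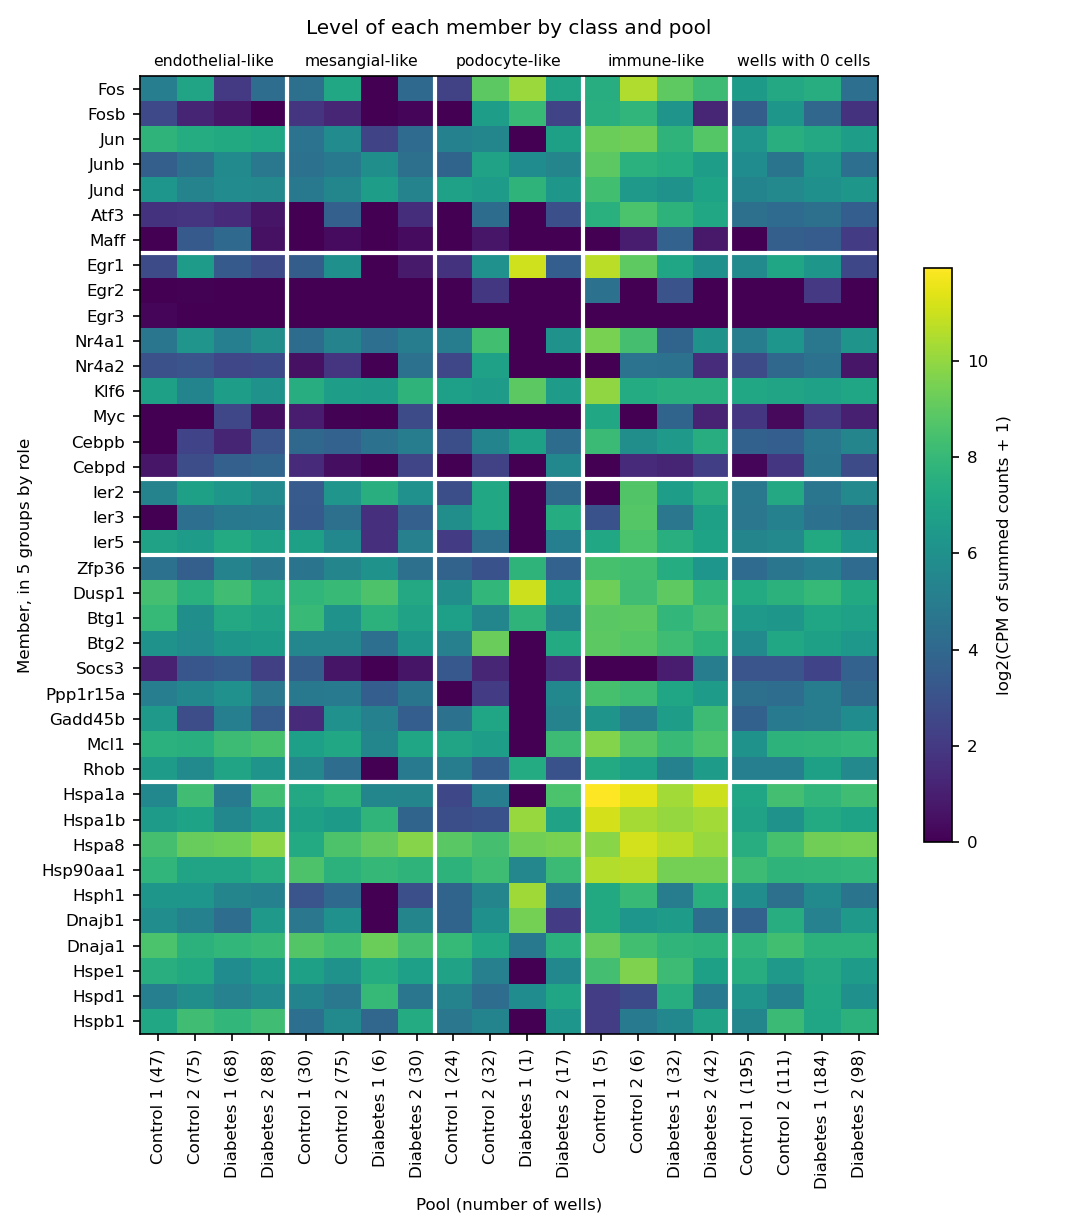
Each row is 1 of the 38 members and each column 1 pool of a class of wells or of wells imaged with 0 cells; colour is log2 of CPM of summed counts plus 1. The 4 immune-like columns are the brightest for most AP-1 and heat shock rows, while Hspb1 is brighter in the endothelial-like columns and Egr3 is near 0 in every column.

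Among the AP-1 genes, Fos, the partner of Jun in AP-1, stood at 171, 1442, 496 and 288 CPM in immune-like wells. In endothelial-like wells Fos was at 33.8, 124, 3.04 and 17.9 CPM, and in mesangial-like wells at 19.95, 142, 0 and 16.02 CPM. The lowest immune-like pool of Fos lay above the highest pool of both other classes. Jun, which can also pair with itself, was at 605, 653, 218 and 445 CPM in immune-like wells and at 217, 167, 149 and 131 CPM in endothelial-like wells. Its mesangial-like level was lower again, at 22.6, 53.1, 4.38 and 16.7 CPM, below the endothelial-like level in all 4 pools. Junb, a weaker activator than Jun, was at 488, 198, 165 and 102 CPM in immune-like wells, and its endothelial-like pools, at 11.1, 20.3, 49.3 and 26.7 CPM, lay below all of these. Its mesangial-like pools were at 21.7, 27.4, 61.4 and 20.5 CPM and overlapped with the endothelial-like ones. Atf3, a stress-induced factor of the ATF/CREB family, was the AP-1 gene with the widest gap between classes. It was at 192, 373, 206 and 140 CPM in immune-like wells and at 2.33, 2.47, 1.69 and 0.614 CPM in endothelial-like wells. Jund, which is less dependent on stimuli than the others, was higher in immune-like than in endothelial-like wells in 4 of 4 pools, with overlapping ranges of 65.7 to 319 CPM and 38.9 to 75.2 CPM. Fosb had the same order in 4 of 4 pools with overlap, and Maff, a small Maf protein, stayed at or below 15.9 CPM in both classes.

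Among the other transcription factors, Egr1, a zinc finger factor induced by growth factors, was at 1637, 493, 133 and 63.1 CPM in immune-like wells and at 5.83, 93.4, 9.45 and 5.68 CPM in endothelial-like wells. It was higher in immune-like wells within each pool, but the lowest immune-like pool lay under the highest endothelial-like one. Egr1 was at 10.41, 62.9, 0 and 0.843 CPM in mesangial-like wells. Nr4a1, an orphan nuclear receptor, was at 726, 342, 13.3 and 67.9 CPM in immune-like wells and at 25.1, 74.5, 34.4 and 57.7 CPM in endothelial-like wells, so that the order reversed in the diabetes pool of experiment 1. In podocyte-like wells Nr4a1 reached 323 CPM in the control pool of experiment 2. Nr4a2, a relative of Nr4a1, was at 114 CPM in the podocyte-like wells of that same pool, and at 6.85, 7.84, 4.84 and 5.38 CPM in endothelial-like wells. In mesangial-like wells Nr4a2 was at 0.434, 2.58, 0 and 21.1 CPM. Cebpb, a factor that drives myeloid and inflammatory genes, was at 280, 58.0, 86.4 and 174 CPM in immune-like wells and at 0, 4.21, 1.35 and 7.78 CPM in endothelial-like wells. Klf6 also lay above the endothelial-like range without overlap. Egr2, Egr3, Myc and Cebpd averaged below 10 CPM in endothelial-like wells.

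Of the 3 immediate early response genes, Ier5, which acts on heat shock factor, was at 135, 372, 175 and 122 CPM in immune-like wells and at 118, 94.99, 156 and 111 CPM in endothelial-like wells. Ier5 was the closest of the 3 between those classes, and it was at 110, 46.2, 2.19 and 35.1 CPM in mesangial-like wells. Ier2 was at 0, 411, 98.4 and 175 CPM and Ier3, which acts on survival after stress, at 7.12, 433, 25.8 and 110 CPM in immune-like wells. Both spread from under 10 CPM to over 400 CPM across those pools.

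Among the feedback and stress genes, Zfp36, which speeds the decay of cytokine messenger RNA, was at 356, 314, 164 and 77.0 CPM in immune-like wells and at 20.99, 11.2, 39.2 and 25.5 CPM in endothelial-like wells. Btg2, an antiproliferative gene induced by p53, was at 491, 434, 302 and 206 CPM in immune-like wells and at 65.9, 52.3, 77.3 and 90.03 CPM in endothelial-like wells. These ranges did not overlap for either gene. Btg2 also reached 598 CPM in podocyte-like wells of the control pool of experiment 2. Ppp1r15a, which restores translation after stress, was above the endothelial-like range without overlap as well. Dusp1, a phosphatase of MAP kinases, differed less, at 626, 313, 507 and 238 CPM in immune-like wells and 324, 190, 305 and 172 CPM in endothelial-like wells. Mcl1, an anti-apoptotic relative of Bcl2, was at 847, 438, 271 and 372 CPM in immune-like wells and at 193, 176, 292 and 349 CPM in endothelial-like wells, where the order reversed in the diabetes pool of experiment 1. Rhob, a small GTPase, had a mean of 98.2 CPM in immune-like and 84.4 CPM in endothelial-like wells, the smallest ratio of means of these 9 genes, and Socs3 averaged below 10 CPM in both.

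The heat shock genes with the largest class differences were the inducible Hsp70 genes. Hspa1a was at 3898, 2766, 1236 and 2086 CPM in immune-like wells, at 46.8, 305, 28.2 and 307 CPM in endothelial-like wells and at 144, 216, 43.8 and 41.5 CPM in mesangial-like wells. Hspa1b was at 2269, 1295, 1058 and 1238 CPM in immune-like wells, at 91.1, 118, 46.4 and 84.5 CPM in endothelial-like wells and at 108, 90.9, 221 and 13.4 CPM in mesangial-like wells. Every immune-like pool lay above every pool of the other 2 classes for both genes. Hspa1a was also at 1109, 2596 and 2917 CPM in smooth muscle or renin cell-like wells of 3 pools, and at 5.89 CPM in the 3 such wells of the fourth, the diabetes pool of experiment 2. Hsp90aa1, the inducible cytosolic Hsp90, was at 1489, 1623, 692 and 698 CPM in immune-like wells and at 232, 122, 124 and 171 CPM in endothelial-like wells, again without overlap.

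Hspa8, the constitutive Hsc70 that folds proteins in unstressed cells, differed less between classes. It was at 890, 2196, 1578 and 1081 CPM in immune-like wells, at 341, 563, 632 and 914 CPM in endothelial-like wells and at 156, 381, 536 and 866 CPM in mesangial-like wells. It was higher in immune-like wells in each pool, and the ranges overlapped. Of its nonzero values, 93.2% were fractional counts, which split reads between sites of the genome, so its level depends on how such reads were shared out. Hspe1, the mitochondrial cochaperone of Hspd1, was at 330, 780, 288 and 110 CPM in immune-like wells, at 176, 151, 54.0 and 89.5 CPM in endothelial-like wells and at 108, 66.6, 164 and 106 CPM in mesangial-like wells. Hspe1 and Hspd1 have overlapping gene models on chromosome 1.

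Hspb1, the small heat shock protein Hsp27 that binds actin, had the reverse order. It was at 140, 310, 234 and 311 CPM in endothelial-like wells and at 3.56, 29.3, 46.7 and 117 CPM in immune-like wells. Its lowest endothelial-like pool lay above its highest immune-like pool. Smooth muscle or renin cell-like wells were higher still, at 335, 860, 259 and 421 CPM. Dnaja1, a cochaperone of Hsp70, was highest in mesangial-like wells, at 425, 323, 614 and 333 CPM, and was above the endothelial-like level in all 4 pools.

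**Figure D2:**
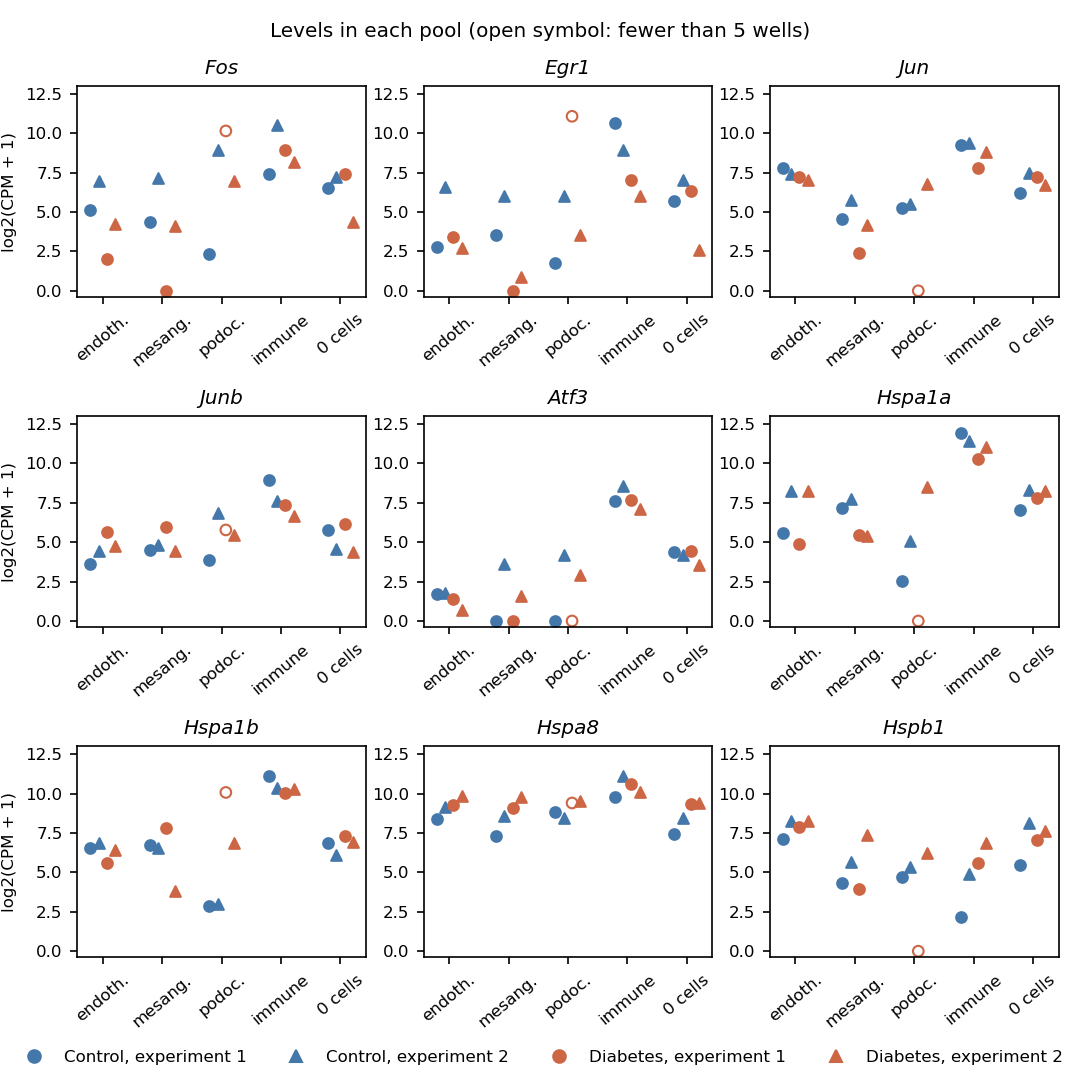
Each panel is 1 member and each point 1 pool, in CPM of summed counts on a log axis, by class and for wells imaged with 0 cells; open points rest on under 5 wells. Fos, Junb, Atf3, Hspa1a and Hspa1b stand apart upwards in immune-like wells, and Hspb1 is lower there than in endothelial-like wells.

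The immune-like class was not uniform. At a finer clustering resolution 87 wells were immune-like, in 3 clusters of 43, 32 and 12 wells, of which the first carried the strongest immune markers. The first was led by Lyz2, Fcer1g and Tyrobp, and the third by the immunoglobulin genes Igkc and Igha and by Jchain. The second was led by Gm26870, Fyb and Gm10800. It had 2 of the 13 immune markers among its 50 leading genes and the member Hspa1a among the top 10, so its immune name rests on few markers. In the 2 diabetes pools, the 13 immune markers summed to 64023 and 19107 CPM in the 19 and 17 wells of the first cluster, and to 3827 and 1409 CPM in the 9 and 21 wells of the second. Hspa1a was at 1436 and 3275 CPM in the first and at 304 and 684 CPM in the second. Fos was at 527 and 461 CPM in the first and at 326 and 25.3 CPM in the second, and Atf3 at 245 and 274 CPM against 27.8 and 0 CPM. The summed level of the 38 members was 9895 and 15218 CPM in the first, 5693 and 4739 CPM in the second and 6260 and 2790 CPM in the third. The clusters held 4 to 21 wells each in these pools.

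Wells without a cell in view set how far a low level can be read. Immune-like wells were above the wells imaged with 0 cells in all 4 pools for 21 of the 32 members at 10 CPM or more (65.6%), against 7.92% of genes. These were Fos, Jun, Junb, Jund, Atf3, Egr1, Klf6, Cebpb, Ier5, Zfp36, Dusp1, Btg1, Btg2, Ppp1r15a, Gadd45b and Mcl1, and Hspa1a, Hspa1b, Hspa8, Hsp90aa1 and Hspe1. Endothelial-like wells were above the wells with 0 cells in all pools for 4 members, Ier5, Ppp1r15a, Rhob and Hspb1, a share of 12.5% against 22.4% of genes. They were below them in all pools for 7 members, Fos, Fosb, Atf3, Klf6, Cebpb, Hspa1a and Hsp90aa1, where 8.47% of genes were below. Of these 7, Fosb, Atf3 and Cebpb reached the floor of 10 CPM only through the immune-like wells. Their low endothelial-like level thus comes in part with the floor. Atf3 and Cebpb are also among the 21 members of the immune-like wells. Mesangial-like wells were above in all pools for 2 members, Zfp36 and Dnaja1, against 11.1% of genes, and below in all pools for 10 members, against 12.2% of genes. Fosb and Atf3 were among these 10, and the floor did not use mesangial-like levels. Fos was at 89.99, 148, 171 and 19.6 CPM, Egr1 at 51.6, 131, 78.2 and 5.00 CPM, Hspa1a at 130, 323, 228 and 308 CPM and Hspa8 at 170, 348, 659 and 688 CPM in the wells with 0 cells. The endothelial-like level of Fos, Atf3 and Hspa1a was thus not above that of wells with no cell in view, and no expression in endothelial cells is read from it. The class held 2 clusters. In the first, Hspa1a was at 176, 375, 67.6 and 395 CPM, above the wells with 0 cells except in the diabetes pool of experiment 1. In the second it was below them in each pool. In experiment 2, Fos was above them in the diabetes pool of the first cluster, at 22.5 CPM, and the control pool of the second, at 200 CPM, and below them elsewhere. Immune markers in the wells with 0 cells summed to 923, 227, 8481 and 1829 CPM, and their part in these levels was not tested.

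The image count itself moved the members less. The members' median ratio of the level with 0 cells to that with 1 cell was 0.735, 0.907, 0.877 and 0.831 in the 4 pools, and 11 members were higher with 1 cell in all 4. All 11 were among the 32 at 10 CPM or more, where 19.5% of genes were higher.

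Reads of the members were also counted well by well, after each well had been thinned to 10000 reads. Hspa1a had a read in 100%, 66.7%, 71.4% and 61.9% of the immune-like wells that were deep enough, of which there were 4, 6, 28 and 42. Its share in the diabetes pool of experiment 2 had an exact 95% interval of 45.6% to 76.4%, which covers counting error only. In endothelial-like wells the Hspa1a share was 7.69%, 29.3%, 8.06% and 38.6%, and in wells with 0 cells 23.5%, 75.2%, 35.7% and 59.8%. Of the 195, 111, 184 and 98 wells with 0 cells, 17, 105, 14 and 92 were deep enough. The thinned 0-cell values of experiment 1, here and below, thus rest on a small and deep part of those wells. Unthinned, the Hspa1a share was 100%, 83.3%, 78.1% and 78.6% in immune-like wells and 14.9%, 64.0%, 22.1% and 67.0% in endothelial-like wells. The endothelial-like shares of Hspa1a lay below those of wells with 0 cells in each pool, so they are not read as expression. The immune-like share was above the 0-cell share in value in 3 pools and below it in the control pool of experiment 2, and in the diabetes pool of experiment 2 the exact 95% interval of the 0-cell share, 49.0% to 69.9%, overlapped with the immune-like one.

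Fos had a read in 50.0%, 33.3%, 53.6% and 33.3% of immune-like wells and in 5.13%, 18.7%, 4.84% and 5.68% of endothelial-like wells at 10000 reads. Its share in the wells with 0 cells that were deep enough was 29.4%, 47.6%, 28.6% and 17.4%. Unthinned, the Fos shares were 60.0%, 50.0%, 75% and 54.8% in immune-like wells and 8.51%, 53.3%, 11.8% and 22.7% in endothelial-like wells. Atf3 had a read in 25%, 33.3%, 32.1% and 16.7% of immune-like wells, in 2.56%, 1.33%, 4.84% and 1.14% of endothelial-like wells and in 5.88%, 9.52%, 21.4% and 4.35% of wells with 0 cells. In value, Atf3 was detected in the larger share of immune-like wells in each pool, although not in most of them. Its shares in the control pools rest on 4 and 6 immune-like wells. In both diabetes pools 23 members were detected in a larger share of immune-like than of endothelial-like wells. Among the 32 at 10 CPM or more there were 21 such members, against 25.2% of the genes that passed that limit.

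A pool's level could rest on few wells. In the control pool of experiment 2, 1 of the 6 immune-like wells held 98.3% of the Fos reads and 99.6% of the Egr1 reads of the class, and 77.5% of the Atf3 reads. The best well of Hspa1a held 44.9%, 52.5%, 22.3% and 22% of the class's reads in the 4 pools. Other genes were uneven too. Among genes with 100 to 1000 reads in the class, the median share of the top well was 80.4% over all genes and 58.2% over the members in that control pool, and 25.4% and 24.4% in the diabetes pool of experiment 1. Among genes with 1000 to 10000 reads, it was 52.6% over all genes and 57.2% over 5 members in that control pool. In the diabetes pool of experiment 1 it was 12.5% over all genes and 18.7% over 6 members. The Fos and Egr1 shares in that control pool lay above all of these medians.

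Summed per well, the 28 immediate-early and stress genes took a median of 1.09%, 0.39%, 0.33% and 0.245% of the reads of an immune-like well and 0.15%, 0.11%, 0.175% and 0.13% of an endothelial-like well. The 10 heat shock genes took 1.14%, 0.325%, 0.425% and 0.21% of an immune-like well and 0.14%, 0.15%, 0.12% and 0.20% of an endothelial-like well. The immune-like medians were above the endothelial-like ones in all 4 pools for both groups, by a small margin for the heat shock genes in the diabetes pool of experiment 2. The highest immune-like wells there reached 1.69% for the immediate-early and stress genes and 4.61% for the heat shock genes. In the 17, 105, 14 and 92 wells with 0 cells that were deep enough, the medians were 0.06%, 0.12%, 0.175% and 0.12% for the immediate-early and stress genes. For the heat shock genes they were 0.10%, 0.15%, 0.185% and 0.16%.

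**Figure D3:**
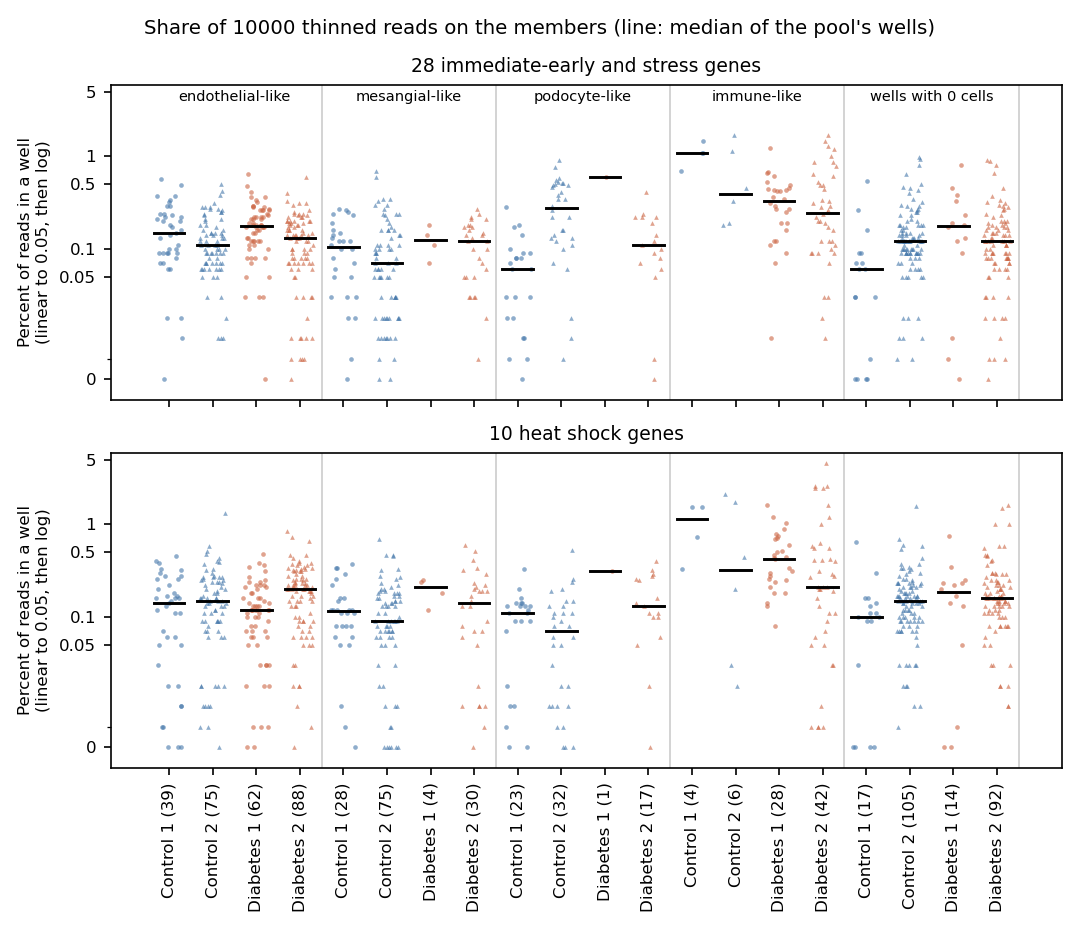
Each point is 1 well thinned to 10000 reads; the vertical axis is the percentage of its reads on the 28 immediate-early and stress genes or on the 10 heat shock genes, by class and pool, with a line at the median. Immune-like wells above 1% occur in every pool, while the endothelial-like medians stay between 0.11% and 0.20%.

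The members tended to be high in the same immune-like wells, and in some sets of other classes. Spearman correlations over wells at 10000 reads are descriptions, and the wells of a set share their pool. Over pairs of immediate-early and stress genes, the median rho was 0.145 in the 28 immune-like wells of the diabetes pool of experiment 1 and 0.159 in the 42 of experiment 2. The median over pairs of other genes detected in the same wells was 0.00138 and 0.0258. Over pairs of heat shock genes it was 0.112 and 0.198, and between the 2 groups 0.0665 and 0.173. In endothelial-like wells the immediate-early pairs had medians of 0.0257, 0.0138, 0.0191 and 0.0314 in the 4 pools, near the 0.0172, 0.0137, 0.0106 and 0.0106 of other genes. The heat shock pairs of endothelial-like wells had medians of 0.106, 0.0773, 0.0216 and 0.0567. Sets of other classes reached values close to the immune-like ones: 0.122 for immediate-early pairs in the 28 mesangial-like wells of the control pool of experiment 1, and 0.102 and 0.116 for immediate-early and heat shock pairs in the 32 podocyte-like wells of the control pool of experiment 2. Fos and Hspa1a had a rho of 0.381 and 0.476 in the immune-like wells of the 2 diabetes pools. Hspa1a and Hspa1b had a rho of 0.676 and 0.656, and as near-identical copies they can share reads.

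The level of the module within a class moved with other properties of the wells. In immune-like wells of the diabetes pool of experiment 2, the share of reads on immediate-early and stress genes had a Spearman rho of 0.591 with the share on immune markers, and that on heat shock genes a rho of 0.440. In the diabetes pool of experiment 1 these were 0.148 and 0.365. The heat shock share had a negative rho with the percentage of mitochondrial reads in 11 of 12 sets of wells, at -0.709 in the 23 podocyte-like wells of the control pool of experiment 1 and 0.124 in the exception, the 42 immune-like wells of the diabetes pool of experiment 2. The part of these properties in the class levels was not tested.

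**Figure D4:**
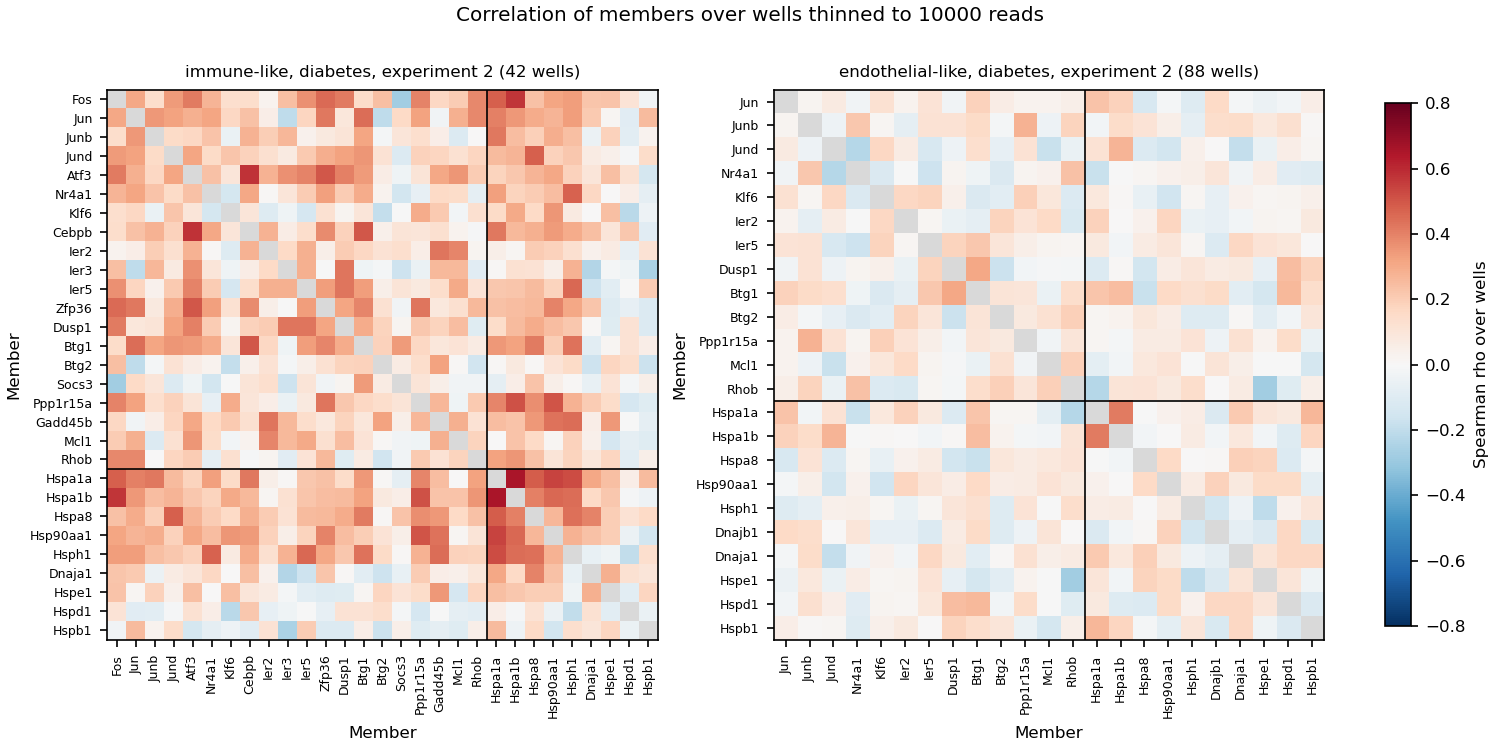
Each cell is the Spearman rho of 2 members over wells thinned to 10000 reads, in the 42 immune-like and the 88 endothelial-like wells of the diabetes pool of experiment 2, with lines between the immediate-early and the heat shock genes. Red cells, up to the Hspa1a and Hspa1b pair, dominate in immune-like wells, and the endothelial-like map is mostly pale.

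Diabetes was then compared with control over the pools. Counts were summed per class and pool and tested by edgeR's quasi-likelihood test with the experiment as a block and Benjamini-Hochberg adjustment over all genes tested. Differences are log2 of diabetes over control. The labels do not say whether the pools differ in more than their mice and experiment, and each condition had 2 pools. edgeR draws the spread of each gene towards a value fitted over all genes. The weight of that value, in prior degrees of freedom, had a median of 6.73 in endothelial-like and 5.61 over all kept wells. In mesangial-like and immune-like wells the median was infinite. There the p-values of most genes rest on the shared spread and not on the gene's own spread between pools. Podocyte-like wells were not tested, since 1 pool held 1 such well. No member passed an adjusted p of 0.05 in any of the 4 sets of wells tested, among 35 members tested in endothelial-like, 30 in mesangial-like and 34 in immune-like wells and 37 over all kept wells. Calls were rare for all genes too, at 0.00811% in endothelial-like, 0.129% in mesangial-like and 0.0345% in immune-like wells and 0.0783% over all kept wells. Among the called genes, Xist was lower in the diabetes pools by 8.06 on the log2 scale over all kept wells (SE 0.42, adjusted p 0.00378 by edgeR) and Ddx3y was higher by 8.95 (SE 0.81, adjusted p 0.0258 by edgeR), although the labels give littermates of matched sex. Sex and diabetes therefore cannot be told apart in these pools.

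Hspa8 was the member with the steadiest direction, higher in the diabetes pool of both experiments in endothelial-like and mesangial-like wells, over all kept wells and in wells with 0 cells. Over all kept wells Hspa8 was at 335, 501, 1008 and 902 CPM, both diabetes pools above both control pools. Its log2 difference was 1.28 (SE 0.30, adjusted p 0.333 by edgeR), the smallest p of the members there. Without the immune-like wells it was at 318, 462, 736 and 865 CPM, again with both diabetes pools above both control pools. In endothelial-like wells the difference was 0.82 (SE 0.29) and in mesangial-like wells 1.49 (SE 0.50, adjusted p 0.832 by edgeR), from 6 wells in 1 diabetes pool. In immune-like wells the Hspa8 difference was 0.83 in experiment 1 and -1.02 in experiment 2, with a fitted difference of -0.03 (SE 0.75). The wells with 0 cells had differences of 1.95 in experiment 1 and 0.98 in experiment 2, beside 0.89 and 0.70 in endothelial-like wells, and the part of RNA outside cells in the class differences was not tested. DESeq2 called Hspa8 over all kept wells (adjusted p 0.00232), where it called 3.67% of genes, and edgeR did so on wells thinned to 10000 reads (adjusted p 0.0444), where it called 1.44% of genes.

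Hspa1a and Hspa1b were higher in value over all kept diabetes wells, short of the adjusted test, with differences of 0.74 (SE 0.27, adjusted p 0.665 by edgeR) and 1.03 (SE 0.29, adjusted p 0.483 by edgeR). DESeq2 called Hspa1b there (adjusted p 0.0454). Immune-like wells were 5 of 120, 6 of 203, 32 of 128 and 42 of 188 kept wells, and the 13 immune markers summed to 1674, 360, 17862 and 1962 CPM over all kept wells. Without the immune-like wells the differences were -0.11 for Hspa1a and -0.31 for Hspa1b, opposite in sign. The number of members with a positive difference went from 30 of 37 to 23 of 36, and their median from 0.52 to 0.18, where the medians of all genes were 0.05 and 0.01. Over a sum of wells, more wells of a class and more RNA per well cannot be told apart. Within immune-like wells Hspa1a had a difference of -0.96 (SE 0.62) and in mesangial-like wells of -2.04 (SE 1.05), neither past the test.

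Fos was lower in the diabetes pools of endothelial-like wells in both experiments, with a difference of -3.07 (SE 0.74, unadjusted p 0.00335 and adjusted p 1.0 by edgeR). Both diabetes pools, at 3.04 and 17.9 CPM, lay under both control pools, at 33.8 and 124 CPM. DESeq2 called it at -3.09 (SE 0.79, adjusted p 0.0175), where it called 0.738% of genes. Every one of these levels lay below that of the wells with 0 cells in the same pool. In those wells Fos was at 148 CPM in the control pool and 19.6 CPM in the diabetes pool of experiment 2, and at 89.99 and 171 CPM, the opposite order, in experiment 1. In mesangial-like wells the Fos difference was -3.94 (SE 2.12), and in immune-like wells -0.35 (SE 1.13), with opposite signs in the 2 experiments. Egr1 was likewise lower in value in the diabetes pool of experiment 2 in every named class and in wells with 0 cells, there at 131 and 5.00 CPM, while in experiment 1 those wells were at 51.6 and 78.2 CPM.

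In immune-like wells most members were lower in value with diabetes. Of the 34 tested, 29 had a negative difference, with a median of -0.89. Over all genes tested, 2684 of 8707 were negative and the median was 0.94. With no filter on low counts the medians were -0.66 and 2.24, so the all-gene median depends on that filter. The AP-1 family had 6 of 6 tested members negative and the heat shock proteins 8 of 10. Single members did not pass the test. Egr1 had the smallest p, with a difference of -3.22 (SE 1.06, unadjusted p 0.00242 and adjusted p 1.0 by edgeR), and Nr4a1 had -3.95 (SE 1.56, unadjusted p 0.0112 by edgeR). The finer clusters of the class were not filled alike. The second cluster, with lower immune markers than the first in every pool, held 1, 1, 9 and 21 wells of the 4 pools. The first held 4, 3, 19 and 17. The members summed to 37694, 7107, 5693 and 4739 CPM in the second and to 17791, 27334, 9895 and 15218 CPM in the first. The second was thus the higher in the control pool of experiment 1, from 1 well, and the lower in the others. The part of this unequal filling in the differences was not tested. The control pools rested on 5 and 6 wells, and 1 of the 6 held 99.6% of the Egr1 reads of its pool. With that control pool left out, edgeR called Egr1 at -3.59 (adjusted p 0.0284), where 0.348% of genes were called and the control side was 1 pool assumed to vary like the others. With no filter on wells, 18 of 34 members were positive, against 5 of 34 with it.

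In endothelial-like wells Hspe1 had a difference of -1.19 (SE 0.47) and Mcl1 of 0.82 (SE 0.35), with unadjusted p of 0.0360 and 0.0486 by edgeR, and these 2, Fos and Hspa8 were the 4 members of 35 under an unadjusted 0.05 (11.4%, against 4.45% of all genes). The number was 1 of 30 in mesangial-like wells (3.33%, against 2.89%), 2 of 34 in immune-like wells (5.88%, against 3.503%) and 4 of 37 over all kept wells (10.8%, against 7.36%). In endothelial-like wells 18 of 35 members were positive with a median of 0.02, beside 0.05 for all genes. Jun, at -0.42 (SE 0.38), and Junb, at 1.28 (SE 1.04), were not past the test there. The difference between the endothelial-like and the mesangial-like response was tested as an interaction. It called 0 of 36 members, and 0.0153% of all genes. At an unadjusted p under 0.05 edgeR counted 0 members and DESeq2 counted 1, and DESeq2 called 0. The smallest p of the members were those of Ier5, at -2.76 (SE 1.56), Hspe1, at 1.83 (SE 1.18), and Mcl1, at -1.48 (SE 0.97).

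**Figure D5:**
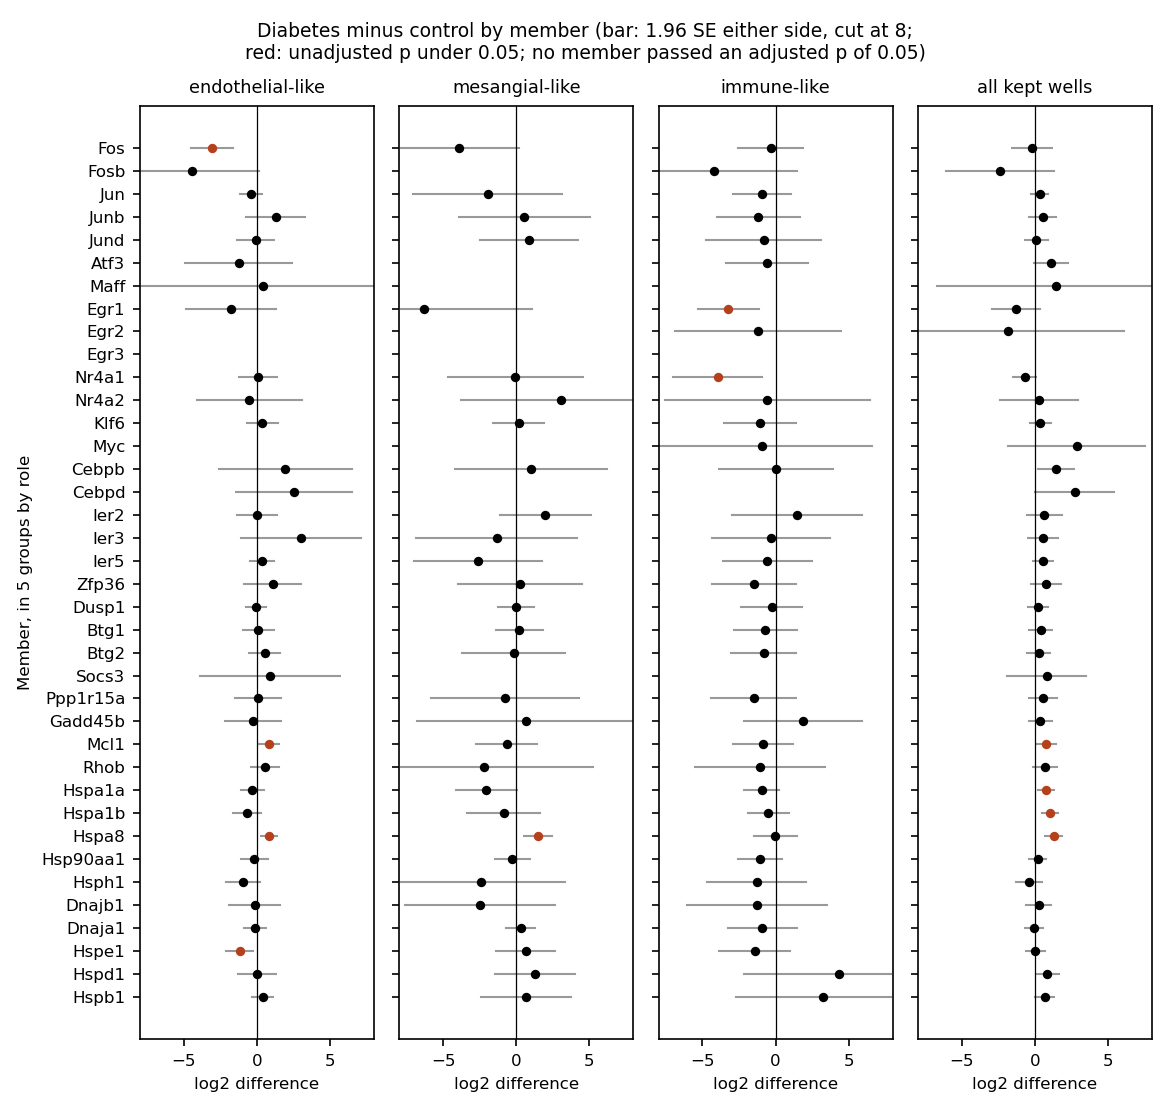
Each row is 1 member and each point its log2 difference of diabetes over control in a set of wells, with red points for an unadjusted p under 0.05. Bars are a 95% interval by the normal distribution from the standard error, cut at 8, and can be narrower than the test allows. The bar of Cebpb over all kept wells starts at 0.238, with an unadjusted p of 0.0533 by edgeR. Hspa8 lies right of 0 in endothelial-like, mesangial-like and all kept wells, most members lie left of 0 in immune-like wells, and no point passed the adjusted test.

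The 2 experiments differed in some members more than the conditions did. In endothelial-like wells Hspa1a was at 305 and 307 CPM in experiment 2 and at 46.8 and 28.2 CPM in experiment 1, a log2 difference of 3.30 (SE 0.43, unadjusted p 7.47e-05 and adjusted p 0.123 by edgeR). No member passed the adjusted test, which called 0.0162% of genes. DESeq2 called Hspa1a at 3.24 (adjusted p 1.09e-08), where it called 1.82% of genes, and edgeR without a filter on low counts called it at 3.37 (adjusted p 0.000497), where 0.272% of genes were called. The wells with 0 cells were at 323 and 308 CPM in experiment 2 and at 130 and 228 CPM in experiment 1. The class held 2 clusters that the experiments filled unequally, the first with 13, 56, 24 and 64 wells and the second with 34, 19, 44 and 24 wells. Hspa1a was at 176, 375, 67.6 and 395 CPM in the first and at 3.89, 38.3, 8.78 and 52.9 CPM in the second. In both clusters the pools of experiment 2 lay above those of experiment 1, and the first cluster lay above the second in every pool. Hspa1b, at 0.84 (SE 0.50), differed less. Fos, Hspa8, Hspb1 and Gadd45b were the other members under an unadjusted 0.05, at 2.41 (SE 0.72), 0.85 (SE 0.29), 0.99 (SE 0.37) and -2.57 (SE 1.02), and the 5 were 14.3% of the members tested, against 7.22% of genes. In mesangial-like wells no member was called, where 0.166% of genes were, and the smallest p of the members were those of Hspa8 at 1.19 (SE 0.49), Fos at 3.85 (SE 2.12) and Nr4a2 at 8.72 (SE 5.01).

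Genes of the same pathways outside the module were rarely called. Of 37 other immediate-early and AP-1 genes, 28 MAP kinases, serum response factor partners and phosphatases, and 37 other chaperones and heat shock factors, none passed the adjusted test between conditions in any set of wells by edgeR. At an unadjusted p under 0.05, edgeR counted 3 of 30, 0 of 25 and 0 of 35 tested genes of these lists in endothelial-like wells and 8 of 34, 1 of 27 and 1 of 36 over all kept wells. The first list was thus at 10% in endothelial-like wells, against 4.45% of all genes, and at 23.5% over all kept wells, against 7.36%. Over all kept wells DESeq2 called 4, 0 and 1 of them. Ccl2, a chemokine that draws monocytes, was called between experiments in mesangial-like wells, higher in experiment 2 by 7.0 on the log2 scale (SE 1.34, adjusted p 0.000349 by edgeR), and it was the 1 gene of these lists that edgeR called in any comparison. Its difference between conditions over all kept wells was 2.88 (SE 0.47, adjusted p 0.157 by edgeR). Ctgf and Cyr61, targets of serum response factor and YAP, had negative differences there, at -1.63 (SE 0.48) and -1.61 (SE 0.65), and neither passed the adjusted test by edgeR, while DESeq2 called Ctgf. Ctgf was among the 10 leading genes of a mesangial-like cluster, and mesangial-like wells numbered 30, 75, 6 and 30.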

How the data were processed

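Estimated counts per gene and well, as the authors deposited them, are fractional where a read was shared between sites. Per the submitters' processing notes, cutadapt 1.11, STAR 2.4.2a, BWA 0.7.17-r1188, featureCounts 1.5.1 and the build mm10 were used; no source here gives their settings. Gene names came from GENCODE M21 for 45143 of 45792 identifiers. The 1600 wells were grouped by their labels into 4 pools, and the replicate is the pool (2 a condition). Kept wells had 1 imaged cell, at least 500 genes and at most 30% mitochondrial reads, and no doublet caller was run because wells were imaged.

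Clusters were made with scanpy 1.11.5 (2000 variable genes, 15 components, 15 neighbours, Leiden resolution 0.8) without the members. They were named from endothelial, mesangial, podocyte, immune, smooth muscle or renin, tubular, fibroblast and erythroid marker lists. No cluster took a tubular, fibroblast or erythroid name at this setting, while tubular-like and fibroblast-like clusters arose at the finer resolution. In all, 10 clusterings were tried with class sizes in view before this one was chosen, and 6 of them held enough mesangial-like wells to test. Mesangial-like wells of the diabetes pool of experiment 1 numbered 3 to 7 over the 10. Members higher in immune-like than in endothelial-like wells in 4 of 4 pools numbered 19 to 22. Markers alone gave 446 of 639 wells the same class, and 71 lay near the cut.

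Summed counts, rounded, were tested with edgeR 4.0.16 (R 4.3.3; TMM, filterByExpr, robust quasi-likelihood, experiment as a block) where each pool had at least 5 wells of the class, at an adjusted p of 0.05; the fit was tested on simulated data. The replicate number is the experiment that the labels give, which pairs a control and a diabetes pool. Alternatives were DESeq2 1.42.0, limma 3.58.1, other scaling and filters, thinning to 10000 or 5000 reads, other classes and each pool left out. All 38 members are covered; full values are given for Fos, Jun, Junb, Egr1, Hspa1a, Hspa1b and Hspa8 and for the 3 members with the smallest p in each comparison. The members and lists were chosen with earlier results of these data known.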

Additional observations from a re-analysis of the deposited data

Results flagged for a closer look

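7 members had a difference between diabetes and control that pointed one way in both experiments in 1 class and the other way in both experiments in immune-like wells. These contrasts were not tested, the immune-like control pools rest on 5 and 6 wells, and each value is a log2 difference of summed CPM. Junb was higher with diabetes in endothelial-like wells by 2.15 and 0.39 in experiments 1 and 2 and was at -1.57 and -0.95 in immune-like wells, a gap of means of 2.53. Zfp36 had a gap of 2.62, from 0.90 and 1.19 in endothelial-like to -1.12 and -2.03 in immune-like wells. For Btg2 the gap was 1.4, from 0.23 and 0.78 to -0.70 and -1.08. The gap of Mcl1 was 1.73, from 0.60 and 0.99 to -1.64 and -0.24. Rhob had 0.46 and 0.53 in endothelial-like and -2.10 and -0.14 in immune-like wells, a gap of 1.62. Between mesangial-like and immune-like wells, Dnaja1 had a gap of 1.28, from 0.53 and 0.04 to -1.37 and -0.61. Hspe1 had a gap of 2.15, from 0.60 and 0.67 to -0.19 and -2.83, again from mesangial-like to immune-like wells, and its mesangial-like wells of the diabetes pool of experiment 1 numbered 6.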

How the results depend on the processing

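The count of members called was 0 in each of the 7 comparisons. DESeq2 gave 1 call between conditions in endothelial-like wells, 1 between experiments in endothelial-like wells and 2 between conditions over all kept wells, and no filter on low counts gave 1 between experiments in endothelial-like wells. Wells thinned to 10000 reads gave 1 over all kept wells. Leaving out each pool in turn gave 0 to 1 in immune-like wells and 0 to 0 in the other comparisons. Without the replicate block, that is without the pairing of pools by experiment, the count was 0 in each comparison between conditions. The causes were not tested. Calls over all genes varied more, from 0 to 562 over all kept wells, 0 to 91 in endothelial-like, 1 to 299 in mesangial-like and 0 to 546 in immune-like wells, 0 to 153 for the interaction, and 0 to 225 and 0 to 47 between experiments in endothelial-like and mesangial-like wells.

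The 20 members higher in immune-like than in endothelial-like wells became 21 with wells weighted equally and 22 with finer clusters. With a pool left out the count was 21 to 25 and in the 2 diabetes pools alone 23, and with fewer pools to satisfy it can only stay or grow. The 11 members higher with 1 imaged cell became 10, the 23 more often detected became 19 at 5000 reads, and the median rho of 0.159 became 0.181 without thinning. Of the values recomputed, 640 kept their direction and side of the threshold, 58 moved, among them values short of the threshold that changed sign, and 7 passed the threshold. For want of wells, mesangial-like wells gave no test with finer clusters, with at most 15% mitochondrial reads or with thinned wells. They gave none with the clusters rebuilt in another way either, and the interaction was missing in the same settings. Immune-like wells gave no test with at most 15% mitochondrial reads, with thinned wells or with classes by marker share. The alternatives that rebuilt the clusters in another way, or left out the immune-like wells, were added after the data were seen.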
